A study of Mus musculus with 16 samples.

Results

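The 8 genes described here, Cish, Socs2, Socs3, Ghr, Stat5a, Stat5b, Igf1 and Igf1r, carry the growth hormone signal from its receptor to its inhibitors and to insulin-like growth factor 1. They were taken by name from tables of 24354 genes measured by RNA-seq in mouse quadriceps muscle, and all 8 were found in both tables and tested there. They were selected on these same FPKM values and on the deposited q-values between genotypes, which were known when the set was put together. Their values are therefore a description, and the p-values and q-values printed for them support nothing. The study asked how the transcriptome of skeletal muscle answers to physical exercise when HDAC3, a histone deacetylase that works within nuclear receptor corepressor complexes, is present or depleted.

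All mice were males of 4 months on a C57BL/6 background (written C57B/6 in the sample characteristics), fed normal chow on a normal light and dark schedule. The 4 groups of 3 libraries each were wild type at rest, HDAC3 knockout at rest, wild type after treadmill running and HDAC3 knockout after treadmill running. Running meant 3 bouts of 1 h at 10 m/min with 1 h of rest between bouts, and the muscle was taken 2 h after the last bout. The sources used here do not give the Cre line or other means of deleting HDAC3 or the cells it acts in. They also do not say whether each library came from its own animal, and every p-value therefore measures only the spread between these samples, which may be technical. Values are FPKM, fragment numbers scaled for the length of the transcript and the size of the library, and the resting and exercised libraries were normalized in separate tables.

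Growth hormone binds a receptor dimer encoded by Ghr, which activates the kinase JAK2, and JAK2 phosphorylates the transcription factors STAT5A and STAT5B. STAT5 binds palindromic DNA sites as a dimer and induces Igf1 together with Cish and Socs2, whose proteins dampen the same receptor, while Socs3 is induced mainly by STAT3 downstream of interleukin 6 family cytokines and inhibits the kinases themselves. Growth hormone is secreted in pulses, and Cish and Socs2 are known as early transcripts that follow a pulse, so their messenger RNA is used as a readout of recent STAT5 activity in liver and muscle.

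The STAT consensus TTCNNNGAA, which reads the same on both strands, was searched in RefSeq promoter windows of 300 bases on GRCm38.p6, from 250 bases before to 50 bases after an annotated start. Of the 8 genes, 7 had a window (all but Socs2), in 10 windows in total, and 2 windows held a match, those of Cish and Socs3. These 2 stretches are shown because only their windows held a match. Capitals mark the matches. The build differs from the mm9 build of the expression tables.
Cish, GRCm38.p6 chr9:107296654-107296683, plus strand: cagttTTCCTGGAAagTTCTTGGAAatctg
Socs3, GRCm38.p6 chr11:117969501-117969530, minus strand: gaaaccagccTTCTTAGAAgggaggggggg

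In Cish the matches TTCCTGGAA and TTCTTGGAA lay at positions 1 to 9 and 12 to 20 counted from the annotated start, so both fell in the first transcribed bases. In Socs3 the match TTCTTAGAA lay upstream, at positions -154 to -146. Among 32851 windows of the same length, 8.3% held at least 1 match and 0.457% held 2 or more, and 16 windows (0.049%) held matches whose starts lay within 21 bases of each other, as in Cish. A match is a description of these letters and not a bound site. Matches outside these windows were not searched.

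Hdac3, the targeted gene, was read first as a check of the labels. At rest it lay at 33.3, 31.0 and 23.7 FPKM in the wild type and at 5.51, 6.29 and 8.16 FPKM in the knockout. After exercise it lay at 31.0, 32.0 and 27.6 FPKM in the wild type and at 5.32, 6.37 and 4.13 FPKM in the knockout. Every knockout library was below every wild-type library, and Hdac3 fell by 1.99 (SE 0.17) at rest and by 2.33 (SE 0.16) after exercise on the log2(FPKM + 1) scale (limma adjusted p = 0.00487 and 0.00111). All 6 muscle fibre markers looked up were present in all 12 libraries, with summed levels of 41690 to 59100 FPKM. Neutrophil markers (S100a8, S100a9 and 6 others) summed to 544 FPKM in wild-type resting library 2 and to 358 FPKM in knockout exercised library 3, where all 8 were above 0, and to between 1.86 and 12.6 FPKM elsewhere, with Ly6g and Elane at 0. Macrophage markers (8 genes, all above 0 in every library) summed to 33.4 to 49.7 FPKM in the wild type after exercise and to 63.6 to 97.0 FPKM in the knockout after exercise, without overlap. The FPKM steps of low genes gave the relative depth of the libraries: reads per FPKM ranged from 0.66 (knockout resting library 1) to 1.06 (wild-type exercised library 2) of the value in wild-type resting library 1.

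A gene was called where limma's adjusted p between libraries and the authors' deposited Cuffdiff q were both at or under 0.05 in the same direction. By this rule 4.27% of the genes tested at rest and 3.43% of those tested after exercise were called, and 0 of the 8 growth hormone genes were called in either condition. By limma's adjusted p alone the shares of all genes were 4.72% and 3.73%, again with 0 of the 8. At rest 1 of the 8 had an unadjusted limma p under 0.05, beside 1975 of all 9204 genes tested. After exercise 3 of the 8 had one, beside 1797 of all 9037 genes tested. By the authors' deposited q alone, Cish was lower in the knockout at rest, beside 4.94% of all genes lower and 5.9% higher. After exercise Cish, Socs2 and Socs3 were higher by the deposited q, beside 4.66% of all genes higher and 4.91% lower. These counts are part of why the genes were picked, and nothing is read from them.

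**Figure D1:**
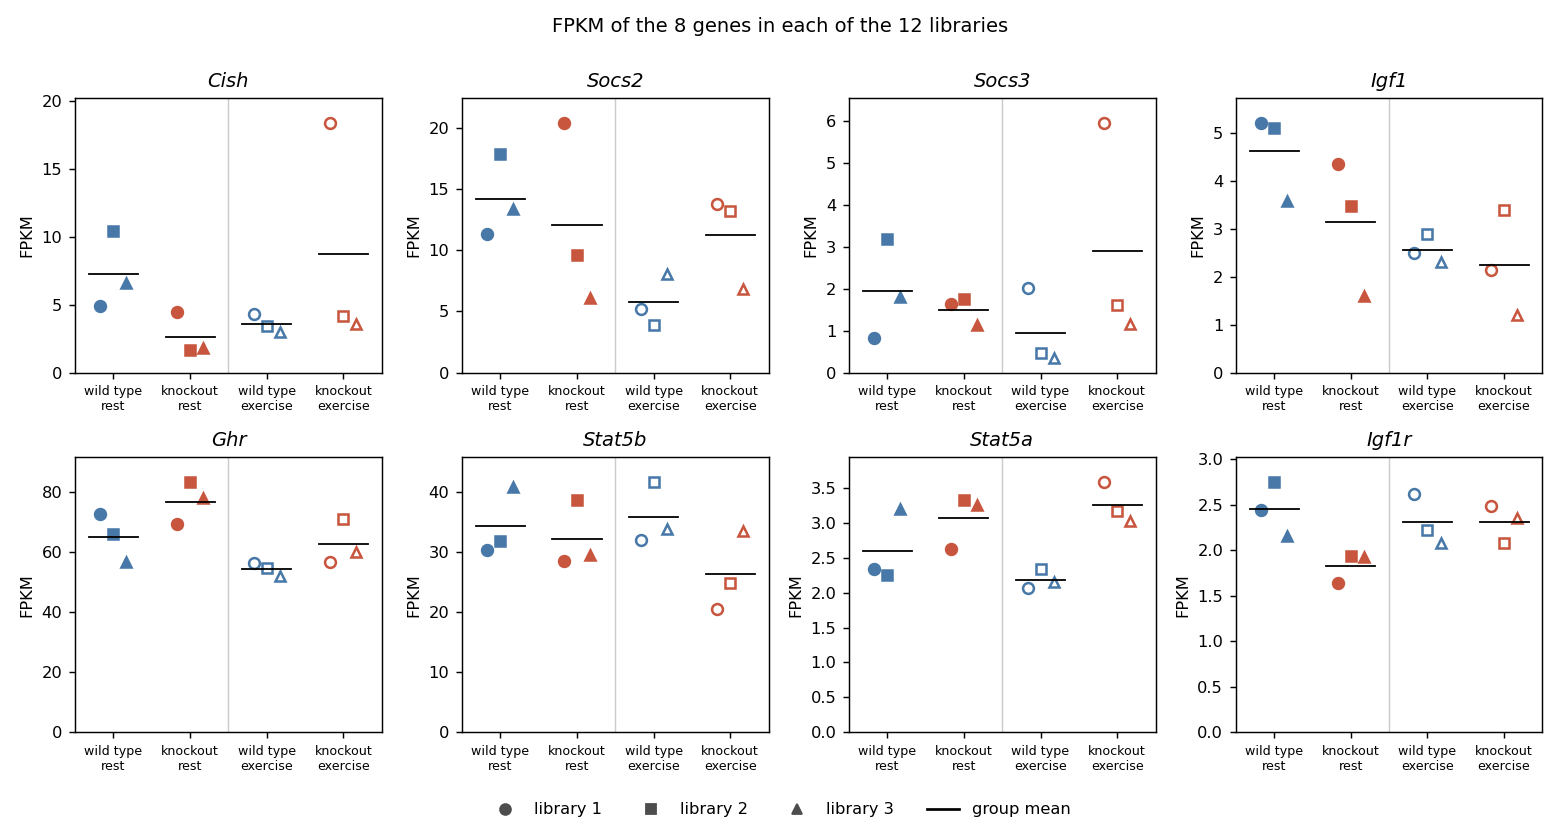
FPKM (vertical axes, linear, starting at 0) of the 8 genes in the 12 libraries; circles, squares and triangles are libraries 1, 2 and 3, filled at rest and open after exercise, blue for wild type and red for knockout, and the bars are group means of 3 libraries. In the panels of Cish and Socs3 the open red circle of knockout exercised library 1 stands at 18.4 and 5.97 FPKM, above every other library.

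Ghr, the receptor, was the most abundant of the 8 per transcript length. It lay at 72.8, 66.0 and 56.7 FPKM in the wild type at rest and at 69.4, 83.4 and 78.0 FPKM in the knockout at rest. After exercise it lay at 56.5, 54.9 and 52.2 FPKM in the wild type and at 56.8, 71.1 and 60.2 FPKM in the knockout. The genotypes overlapped at rest, and after exercise every knockout library was above every wild-type library, although the lowest knockout value, 56.8 FPKM, was close to the highest wild-type value, 56.5 FPKM. The difference, knockout minus wild type, was 0.24 (SE 0.13, adjusted p = 0.321 by limma) at rest and 0.19 (SE 0.12, adjusted p = 0.407 by limma) after exercise. In bulk tissue, more RNA per cell and more cells of a type that carries it cannot be told apart, here or for any gene below.

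Stat5b was the more abundant of the STAT5 pair. Its levels were 30.3, 31.9 and 40.8 FPKM in the wild type at rest, 28.5, 38.7 and 29.5 FPKM in the knockout at rest, 32.0, 41.6 and 33.8 FPKM in the wild type after exercise, and 20.5, 24.8 and 33.4 FPKM in the knockout after exercise. The genotypes overlapped in both conditions. After exercise 2 of the 3 knockout libraries lay below all wild-type libraries, and the difference was -0.45 (SE 0.19, adjusted p = 0.233 by limma, deposited q = 0.0783).

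Stat5a, its close paralog, had a far lower level per transcript length and the opposite sign of difference after exercise. It lay at 2.34, 2.25 and 3.21 FPKM in the wild type at rest and at 2.62, 3.33 and 3.27 FPKM in the knockout at rest, with overlap. After exercise it lay at 2.07, 2.34 and 2.15 FPKM in the wild type and at 3.59, 3.17 and 3.03 FPKM in the knockout, so all 3 knockout libraries were above all 3 wild-type libraries. The means were 2.19 ± 0.135 and 3.26 ± 0.289 FPKM (SD, n = 3), a difference of 0.42 (SE 0.14, adjusted p = 0.147 by limma, deposited q = 0.101). How reads from stretches that the pair share were assigned is not stated in the labels. The macrophage markers separated the exercised genotypes in the same direction, as did the lymphocyte markers (0.563 to 0.999 FPKM in the wild type, 1.20 to 2.41 FPKM in the knockout), and their part in the Stat5a and Ghr differences was not tested.

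Cish encodes the STAT5-induced inhibitor that binds the activated receptor. At rest it lay at 4.89, 10.4 and 6.55 FPKM in the wild type and at 4.45, 1.67 and 1.82 FPKM in the knockout, so every knockout library was below every wild-type library, with knockout library 1 (4.45 FPKM) just below wild-type library 1 (4.89 FPKM). The means were 7.28 ± 2.83 and 2.64 ± 1.56 FPKM (SD, n = 3), a ratio of 2.76 between wild type and knockout. The difference was -1.21 (SE 0.33, adjusted p = 0.0889 by limma), and the authors' deposited q was 0.00119, the smallest value that table holds. Without wild-type library 2, where the neutrophil markers stood apart, the ratio was 2.17, and without knockout library 1 it was 4.18.

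After exercise Cish lay at 4.29, 3.46 and 2.95 FPKM in the wild type and at 18.4, 4.14 and 3.60 FPKM in the knockout. The first knockout library was 4.44 times the group's median, and the other two lay within the wild-type range. The means were 3.56 ± 0.677 and 8.71 ± 8.39 FPKM (SD, n = 3), and the ratio of knockout to wild type was 2.44 with all libraries and 1.09 without knockout library 1. The limma difference was 0.77 (SE 0.49, adjusted p = 0.429), and 0.10 (adjusted p = 0.813) without that library, whereas the deposited q was 0.00132. Over all alternatives the limma adjusted p for Cish ran from 0.285 to 0.813 after exercise and from 0.0598 to 0.247 at rest.

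The values of Cish, Socs3 and Igf1r were whole multiples of the worth of 1 read in all 12 libraries, to within 0.0005 of a read, which gave the smallest number of reads that can stand behind each value. The true numbers may be a multiple of these, and those of the other 5 genes had no common whole number. For Cish these were 60, 106 and 82 reads in the wild type at rest, 36, 17 and 15 in the knockout at rest, 38, 45 and 26 in the wild type after exercise and 203, 36 and 36 in the knockout after exercise. The exact 95% Poisson interval of knockout exercised library 1 was 15.9 to 21.1 FPKM, and that of knockout exercised library 2 was 2.90 to 5.73 FPKM, so the gap between these replicates exceeds counting error. Intervals of this kind cover counting error only. At rest, the interval of knockout library 1, 3.12 to 6.16 FPKM, overlapped that of wild-type library 1, 3.74 to 6.30 FPKM.

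Socs3 encodes the cytokine-signalling inhibitor that acts on the Janus kinases. At rest it lay at 0.823, 3.20 and 1.80 FPKM in the wild type and at 1.63, 1.75 and 1.13 FPKM in the knockout, with overlap and a difference of -0.16 (SE 0.30, adjusted p = 0.808 by limma). Without wild-type library 2 the sign turned, with a ratio of knockout to wild type of 1.15 in place of 0.774.

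After exercise Socs3 lay at 2.01, 0.476 and 0.352 FPKM in the wild type and at 5.97, 1.61 and 1.16 FPKM in the knockout. Library 1 was the highest of each genotype, and wild-type library 1 lay above knockout libraries 2 and 3. The difference was 0.90 (SE 0.47, adjusted p = 0.336 by limma, deposited q = 0.00132). The ratio of knockout to wild type was 3.07 with all libraries, 1.46 with knockout library 1 left out, and 7.03 when wild-type library 1 was dropped instead. The smallest numbers of reads that fit these values were 23, 8 and 4 in the wild type and 85, 18 and 15 in the knockout after exercise.

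**Figure D2:**
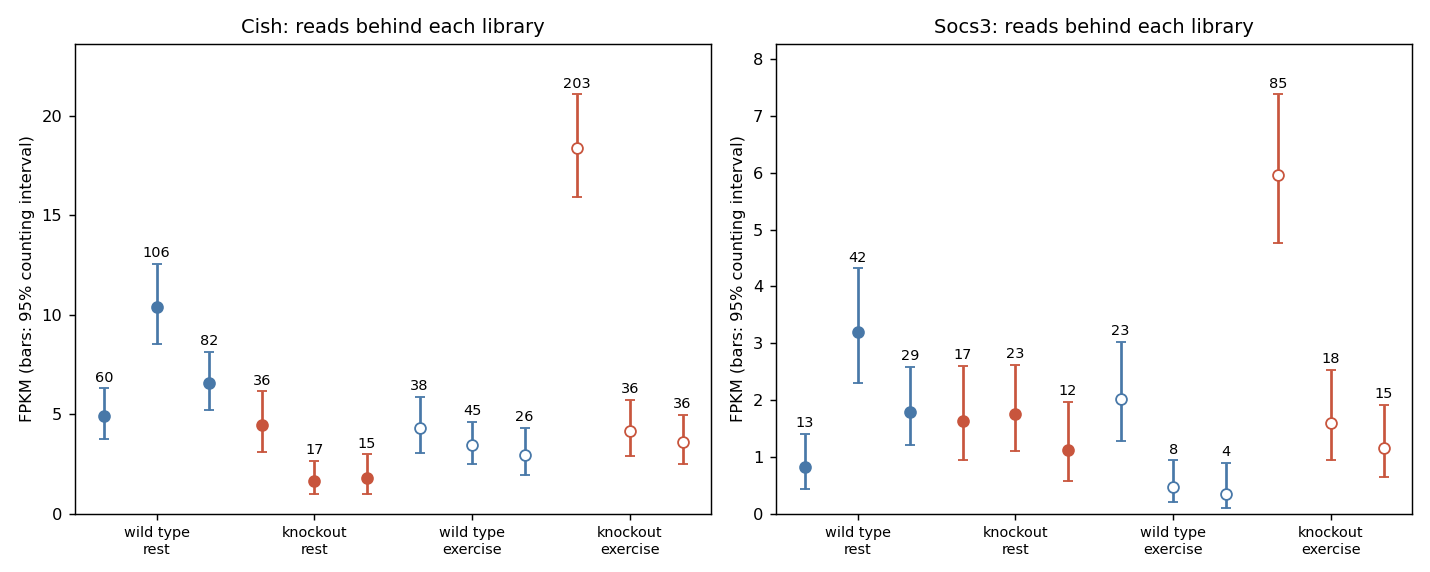
FPKM (vertical axes) of Cish and Socs3 in each library, in the order of libraries 1, 2 and 3 within each group, with exact 95% Poisson intervals as bars; the number above each bar is the smallest number of reads that fits the value. The 203 reads of Cish and 85 reads of Socs3 in knockout exercised library 1 are the highest of the 12 libraries.

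Socs2, the STAT5-induced inhibitor whose loss is known to cause overgrowth in mice, was the most abundant of the 3 inhibitors in every group mean. At rest it lay at 11.4, 17.8 and 13.4 FPKM in the wild type and at 20.4, 9.64 and 6.08 FPKM in the knockout. The genotypes overlapped, because knockout library 1 was the highest of the 6 and libraries 2 and 3 were the lowest, and the difference was -0.35 (SE 0.38, adjusted p = 0.641 by limma). The ratio of knockout to wild type was 0.849 with all libraries, 0.554 without knockout library 1 and 1.06 without knockout library 3.

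After exercise Socs2 lay at 5.20, 3.93 and 8.07 FPKM in the wild type and at 13.7, 13.2 and 6.80 FPKM in the knockout. Unlike Cish, 2 knockout libraries were high, and the third lay below wild-type library 3. The means were 5.73 ± 2.12 and 11.3 ± 3.87 FPKM (SD, n = 3), and the difference was 0.86 (SE 0.30, adjusted p = 0.168 by limma, deposited q = 0.00132). The ratio of knockout to wild type stayed between 1.70 and 2.47 when any 1 library was left out.

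Igf1, the growth factor induced by growth hormone, lay at 5.22, 5.10 and 3.58 FPKM in the wild type at rest and at 4.36, 3.49 and 1.60 FPKM in the knockout at rest. After exercise it lay at 2.49, 2.89 and 2.30 FPKM in the wild type and at 2.15, 3.39 and 1.19 FPKM in the knockout. The genotypes overlapped in both conditions, with library 3 the lowest of each group. The differences were -0.49 (SE 0.27, adjusted p = 0.352 by limma) at rest and -0.19 (SE 0.25, adjusted p = 0.723 by limma) after exercise. Both moved with single knockout libraries: without knockout library 3 they were -0.19 at rest and 0.07 after exercise, where the sign turned, and without knockout library 2 the exercised value was -0.43.

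Igf1r, which encodes the receptor of that factor, lay at 2.44, 2.74 and 2.16 FPKM in the wild type at rest and at 1.64, 1.93 and 1.92 FPKM in the knockout at rest. Every knockout library was below every wild-type library, and the difference was -0.28 (SE 0.14, adjusted p = 0.305 by limma). The smallest fitting numbers, which are not scaled for depth, were 80 to 119 reads in the knockout and 163 to 181 in the wild type. The 95% Poisson interval of wild-type library 3, 1.84 to 2.51 FPKM, overlapped that of knockout library 2, 1.60 to 2.31 FPKM. Satellite cell markers (4 genes, of which 3 or 4 were above 0) also separated the genotypes at rest, at 3.96 to 5.93 FPKM in the wild type and 1.80 to 2.75 FPKM in the knockout, and their part in the resting differences of Igf1r and Cish was not tested. After exercise the Igf1r values were 2.62, 2.22 and 2.08 FPKM in the wild type and 2.49, 2.07 and 2.35 FPKM in the knockout, with overlap. The mean was 2.31 ± 0.276 FPKM in the wild type and 2.30 ± 0.211 FPKM in the knockout (SD, n = 3).

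**Figure D3:**
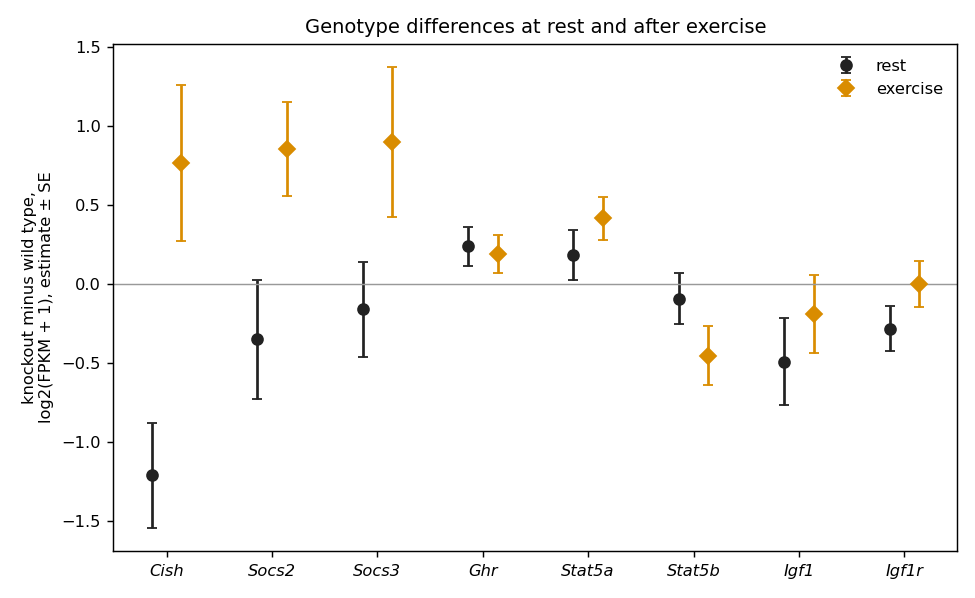
Difference between genotypes (knockout minus wild type, log2(FPKM + 1), vertical axis) for the 8 genes at rest (black circles) and after exercise (orange diamonds), as limma estimates with bars of 1 SE. Cish runs from -1.21 at rest to 0.77 after exercise, and Socs2 and Socs3 stand at 0.86 and 0.90 after exercise, while Ghr lies at 0.24 and 0.19.

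Counted over the 8 genes, wild-type and knockout libraries were fully separated for 2 at rest, both lower in the knockout (Cish and Igf1r), beside 12.4% of all genes lower and 15.6% higher. After exercise they were separated for 2 genes, both higher in the knockout (Ghr and Stat5a), beside 12.4% of all genes higher and 13.7% lower. The median difference of the 8 genes was -0.22 at rest, beside 0.01 over all 9204 genes tested, and 0.31 after exercise, beside -0.001 over 9037 genes. By the widest group of each gene, the 3 inhibitors spread most: the SD reached 97.7% of the mean for Socs3 in the exercised wild type, 96.3% for Cish in the exercised knockout and 62.0% for Socs2 in the resting knockout. This order did not hold within every group. The SD of Igf1 was 49.1% of its mean in the exercised knockout, where that of Socs2 was 34.4%. In the resting knockout it was 44.7% for Igf1 and 22.0% for Socs3. The SD of Ghr was at most 12.4% of its mean in any group.

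The change of the genotype difference from rest to exercise was read from limma over the 12 libraries, as the exercised difference minus the resting one. It was 1.98 (SE 0.67) for Cish, 1.21 (SE 0.54) for Socs2 and 1.06 (SE 0.63) for Socs3, each with a limma adjusted p of 0.923. For the other 5 genes it lay between -0.36 (Stat5b) and 0.30 (Igf1). Among 8854 genes tested in both conditions, 0 (0%) passed an adjusted p of 0.05 in limma, and 433 had an unadjusted p under 0.05. Without knockout exercised library 1 the Cish value was 1.31 and the Socs3 value was 0.54.

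Levels at rest and after exercise stand in tables normalized apart, so they are set side by side with no test. In the wild type, exercised libraries were all below resting libraries for 4 of the 8 genes, beside 8.19% of all genes. The resting mean was 2.04 times the exercised mean for Cish, 2.48 times for Socs2, 1.81 times for Igf1 and 1.20 times for Ghr. Cish, Socs2 and Igf1 are the STAT5-induced genes of the set. Socs3, induced mainly by STAT3, had a resting mean 2.05 times the exercised mean, with overlap. Genes of the STAT5-linked list described below went both ways in the wild-type means. Bcl6 lay at 20.9 FPKM at rest and at 13.5 FPKM after exercise, lower without overlap. So did Cdkn1b, at 15 and 11.4 FPKM, and Ccnd2, at 1.65 and 1.21 FPKM. Bcl2l1 lay at 4.33 and 9.54 FPKM and Pim3 at 4.38 and 9.45 FPKM, both higher without overlap. Mcl1 lay at 65.2 and 90.1 FPKM and Gadd45g at 9.44 and 22.5 FPKM, both with overlap. STAT5 activity was not tested. Summed markers of some other cell types were also lower in the exercised wild type without overlap. Macrophage markers lay at 60.5 to 72.3 FPKM at rest and at 33.4 to 49.7 FPKM after exercise. Fibroblast markers (6 genes, all above 0) lay at 421 to 596 and 278 to 403 FPKM, although Dcn, the most abundant of them, overlapped. Lymphocyte markers (8 genes, of which 2 to 5 were above 0) lay at 1.45 to 3.17 and 0.563 to 0.999 FPKM. Sums of endothelial, adipocyte, satellite cell, Schwann, neutrophil, erythroid and muscle fibre markers overlapped between rest and exercise. The part of any marker list in the levels of the 4 genes was not tested. Over all genes the median log2 ratio of exercised to resting means was -0.001 in the wild type and -0.024 in the knockout.

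In the knockout the libraries of Cish, Socs2, Igf1 and Ghr overlapped between rest and exercise. Cish had a mean of 2.64 FPKM at rest and 8.71 FPKM after exercise, where library 1 stood at 18.4 FPKM, and Socs2 had means of 12.1 and 11.3 FPKM. Igf1r was the only one of the 8 whose knockout libraries did not overlap between conditions, with exercised libraries higher by 1.26 times in the means, beside 5.87% of all genes. Running and the separate normalization cannot be told apart in these levels.

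In the order of group means, Cish was highest in the exercised knockout (8.71 FPKM), followed by the resting wild type (7.28), the exercised wild type (3.56) and the resting knockout (2.64), and of neighbours in that order the libraries did not overlap only between the resting and the exercised wild type. Socs2 ran from the resting wild type (14.2 FPKM) through the resting and exercised knockout (12.1 and 11.3) to the exercised wild type (5.73), with overlap at each step. Socs3 had the exercised knockout first (2.91 FPKM) and the exercised wild type last (0.947), with overlap at each step.

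Single libraries linked the inhibitors. Wild-type library 2 was the highest of its group at rest for Cish, Socs2, Socs3 and Igf1r, and knockout library 1 was the highest of its group after exercise for Cish, Socs2, Socs3, Stat5a and Igf1r. Over the 12 libraries, which share their groups and their library-wide scaling, Pearson's r of log2(FPKM + 1) between Cish and Socs3 was 0.755 (Spearman's rho 0.622), and 0.183 without the 2 libraries farthest from the median of Cish. Between Cish and Socs2 r was 0.527 (rho 0.671), and 0.391 without those libraries. Both relations are descriptions, and that of Cish and Socs3 rests on those 2 libraries. The neutrophil markers summed to 544 FPKM in wild-type resting library 2 and to 2.14 FPKM in knockout exercised library 1. Adipocyte markers (6 genes) summed to 641 FPKM in knockout exercised library 1, the highest of 12, of which Fabp4 made 632 FPKM, and Adipoq lay at 2.08 FPKM there and at 1.08 to 6.62 FPKM over the 12. The part of either marker list in the values of Cish, Socs2 and Socs3 was not tested.

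The genes with the highest r with each inhibitor over the 12 libraries, among those tested in both tables, differed between the 3. They were picked as the highest of 8854 genes over only 12 libraries, so their r is high in part through that choice. No relation between the genes is read from it. For Cish they were Ppip5k1 (r = 0.884), Preb (r = 0.874) and Cited2 (r = 0.868), falling to between 0.617 and 0.621 without the 2 libraries farthest from the median of Cish. For Socs2 they were Alg2 (r = 0.901), Slc38a9 (r = 0.891) and Cpeb1 (r = 0.874), with 0.770 to 0.894 without its 2 farthest libraries. For Socs3 they were Pik3r4 (r = 0.905), Pgd (r = 0.879) and Gclm (r = 0.855), with 0.682 to 0.762.

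The rest of the pathway was read from 7 lists of 92 genes in all, written from knowledge of the pathway: other cytokine receptors, Janus kinases and adaptors, other STATs, other negative regulators, the insulin-like growth factor axis, and targets linked to STAT5 and to STAT3. Earlier results of these data were known when the lists were written, so the counts below are descriptions. At rest 64 of the 92 were tested, and 0 were called higher and 1 lower, beside 4.27% of all genes called. After exercise 63 were tested, and 1 was called higher and 3 lower, beside 3.43%. The median difference was -0.03 at rest and 0.04 after exercise, beside 0.01 and -0.001 over all genes. List medians ran from -0.11 (other STATs) to 0.29 (STAT3-linked targets) at rest and from -0.15 (other negative regulators) to 0.43 (STAT3-linked targets) after exercise. In the STAT3-linked list 4 of 7 tested genes at rest and 6 of 8 after exercise had a difference above 0, and 0 were called. Over all genes the difference was above 0 for 4755 of 9204 at rest and for 4513 of 9037 after exercise. By the authors' deposited q alone, 5 of the 64 list genes tested at rest were higher and 5 lower, beside 10.8% of all tested genes in either direction. After exercise 7 of the 63 list genes tested were higher and 5 lower, beside 9.57% of all tested genes.

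**Figure D4:**
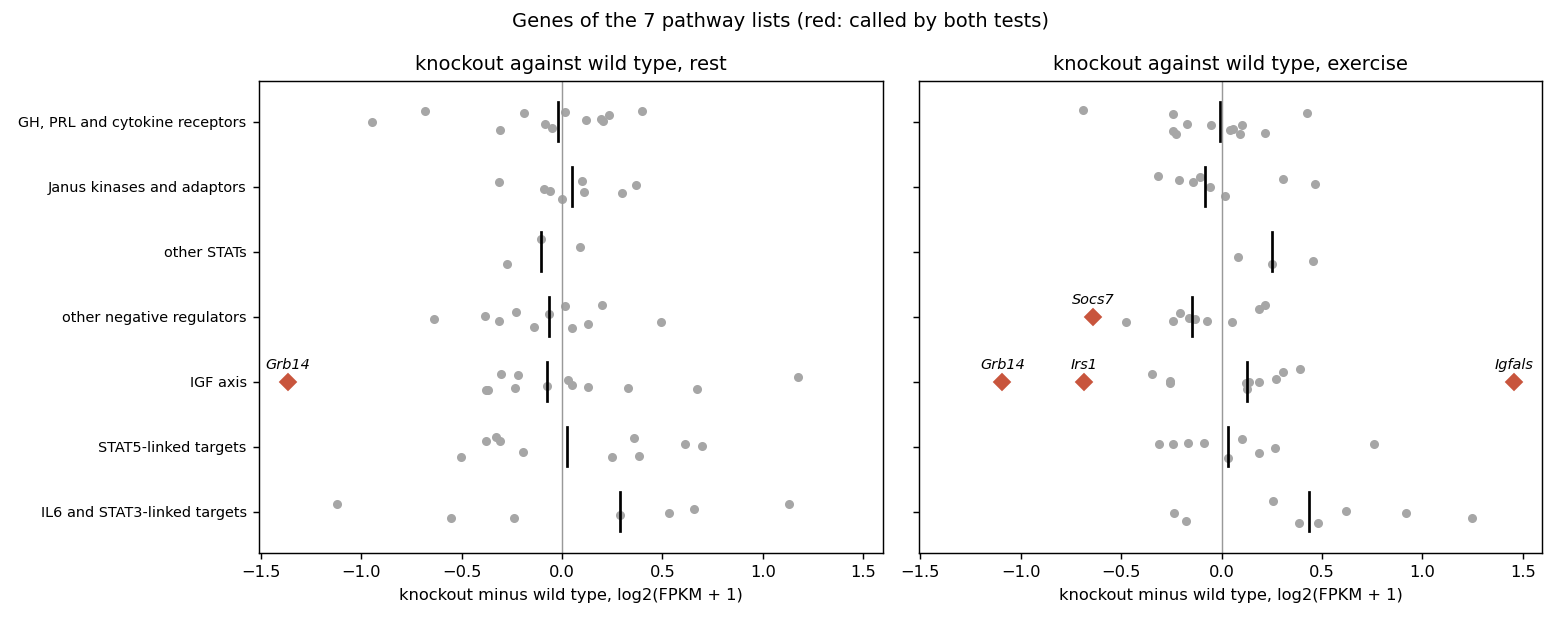
Difference between genotypes (knockout minus wild type, log2(FPKM + 1), horizontal axis) of each tested gene of the 7 lists, at rest (left) and after exercise (right); grey points are genes not called, red diamonds genes called by both tests, black bars list medians, and vertical scatter within a row has no meaning. Grb14 is called on the left, and Igfals, Grb14, Irs1 and Socs7 on the right, all but Socs7 in the insulin-like growth factor axis.

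Grb14, an adaptor that binds the insulin receptor and dampens it, lay at 14.2, 16.1 and 10.9 FPKM in the wild type and at 2.89, 5.57 and 6.06 FPKM in the knockout at rest. After exercise it lay at 8.80, 10.9 and 6.94 FPKM in the wild type and at 3.93, 2.43 and 4.67 FPKM in the knockout. Grb14 fell in both conditions with no overlap, by 1.37 (SE 0.25, adjusted p = 0.0268 by limma) at rest and by 1.09 (SE 0.22, adjusted p = 0.0412 by limma) after exercise.

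Igfals, which encodes the acid-labile subunit that holds insulin-like growth factors in serum complexes, lay at 1.27, 0.946 and 1.05 FPKM in the wild type and at 4.18, 3.66 and 6.77 FPKM in the knockout after exercise. It rose there by 1.46 (SE 0.21, adjusted p = 0.0162 by limma). At rest it lay at 0.921, 0.604 and 1.89 FPKM in the wild type and at 4.06, 5.03 and 2.36 FPKM in the knockout, with a difference of 1.18 (SE 0.29, adjusted p = 0.0653 by limma).

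Irs1, the adaptor that carries the signal of the insulin and insulin-like growth factor receptors, lay at 28.5, 24.8 and 29.4 FPKM in the wild type and at 17.2, 17.8 and 15.3 FPKM in the knockout after exercise, and fell by 0.68 (SE 0.12, adjusted p = 0.0286 by limma). At rest its libraries overlapped, with a difference of -0.37 (SE 0.33, adjusted p = 0.573 by limma). Socs7, a further member of the family of Cish, lay at 17.7, 17.3 and 18.2 FPKM in the wild type and at 11.5, 11.2 and 10.4 FPKM in the knockout after exercise, and fell by 0.64 (SE 0.11, adjusted p = 0.0233 by limma). The differences of Irs1 and Socs7 were opposite in sign to those of Cish, Socs2 and Socs3 after exercise. Leaving out 1 library at a time left between 0 and 2 of the list genes called at rest and 0 or 1 after exercise. Grb14 at rest was lost without wild-type library 1 or 2 or any 1 knockout library, and after exercise Grb14, Irs1 and Socs7 were lost without any 1 library, whereas Igfals was lost without wild-type library 2 or 3 or knockout library 1, with adjusted p-values of up to 0.062.

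The lists without a call are given by the 2 genes, tested in at least 1 condition, with the highest mean FPKM over all 12 libraries, an order that need not hold within a condition. Among the receptors, Il6st, the shared receptor chain of the interleukin 6 family, had means of 43.5 FPKM in the wild type and 51.3 FPKM in the knockout at rest, and of 46.2 and 54.2 FPKM after exercise. Ifngr2, a chain of the interferon gamma receptor, had means of 36.3 and 41.9 FPKM at rest and of 37.8 and 39.0 FPKM after exercise. Among the kinases, Jak1 had means of 29.7 and 38.2 FPKM at rest and of 29.0 and 40.7 FPKM after exercise, with every knockout library above every wild-type library in both conditions and no call. Jak2, the kinase bound to the growth hormone receptor, had means of 30.0 FPKM in both genotypes at rest, where it was not tested, and of 29.0 ± 4.25 and 23.2 ± 4.18 FPKM (SD, n = 3) after exercise.

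Stat3, the transcription factor upstream of Socs3, lay at 14.2, 11.6 and 13.0 FPKM in the wild type and at 24.6, 14.6 and 10.4 FPKM in the knockout after exercise, again with knockout library 1 highest of the 12. At rest its means were 10.7 ± 0.771 and 8.73 ± 1.01 FPKM (SD, n = 3). Stat6 had means of 6.21 and 6.72 FPKM at rest and of 5.66 and 6.07 FPKM after exercise. Among the targets linked to STAT5, Mcl1, a survival factor, had means of 65.2 and 83.3 FPKM at rest and of 90.1 and 92.1 FPKM after exercise, and Gadd45g had means of 9.44 and 13.8 FPKM at rest and of 22.5 and 21.1 FPKM after exercise. At rest Bcl6 of the same list, with means of 20.9 and 14.2 FPKM, lay above Gadd45g.

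The metallothioneins Mt1 and Mt2, metal-binding proteins induced by STAT3, glucocorticoids and zinc, had the highest means of the STAT3-linked genes over the 12 libraries, although at rest Mt2 lay below Cebpb (means of 9.61 and 14.7 FPKM in wild type and knockout). Mt1 lay at 208, 66.6 and 144 FPKM in the wild type and at 419, 122 and 107 FPKM in the knockout after exercise. At rest Mt1 lay between 16.3 and 17.9 FPKM in the wild type and between 9.54 and 32.4 FPKM in the knockout. Mt2 lay at 72.7, 24.1 and 62.0 FPKM in the wild type and at 252, 63.5 and 47.2 FPKM in the knockout after exercise. At rest Mt2 lay at 2.79, 2.24 and 5.46 FPKM in the wild type and at 7.04, 6.70 and 12.4 FPKM in the knockout, without overlap, a difference of 1.13 (SE 0.31, adjusted p = 0.0865 by limma). Library 1 was the highest of each exercised genotype for Mt1 and Mt2, as it was for Cish and Socs3, and neither gene was called.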

How the data were processed

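RNA-seq values of 12 quadriceps libraries (3 for each of wild type and HDAC3 knockout, at rest and after exercise) were used, and GRO-seq was not analysed here. FPKM per library, with a p-value and a q-value per gene, were deposited by the authors in a table per condition, processed with TopHat2, Bowtie, Cuffdiff and HOMER on mm9 per the submitters' processing notes; the sources used here do not give versions, annotation, strand or Cuffdiff settings. Which table holds rest and which exercise came from the tables' own names. The 8 genes and all lists were chosen with earlier results of these data known.

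Genes with a deposited p under 1 were taken as tested (9204 at rest, 9037 after exercise; 27 names turned into dates by a spreadsheet were left out). limma 3.58.1 in R 4.3.3 was fitted to log2(FPKM + 1) over all of them (two-sided; variances moderated along a mean trend; p-values adjusted by Benjamini-Hochberg); this scale understates differences of low genes. The fit was tested on simulated data. A call needs limma's adjusted p and the deposited q at or under 0.05 with the same sign. Genes named are the 8, Hdac3, called list genes, the 2 tested genes of each list without a call with the highest mean FPKM over the 12 libraries, and the 3 genes with the highest r with Cish, Socs2 and Socs3. Some further genes of the STAT5-linked and STAT3-linked lists are named for comparison of levels. Of the 92 list genes, those with a deposited p of 1 or more were not tested.

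Absolute depth is unknown. What 1 read is worth was found per gene from FPKM steps, as the smallest whole numbers of reads (up to 500, tolerance 0.05 of a read) with the libraries' relative depths, for 4936 of 8854 genes (55.7%); with so many unsolved, no count test was run. Promoter windows were those of RefSeq on GRCm38.p6. FPKM per library summed to 454359 to 522584. Alternatives were pseudocounts of 0.1 and 0.5, other filters, rescaled medians, no trend, a threshold of 0.01, either test alone, a replicate block and leaving out each library.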

Additional observations from a re-analysis of the deposited data

Results flagged for a closer look

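For Cish and Socs3 every knockout library lay below the wild-type mean at rest and above the wild-type mean after exercise. The change of the difference was 1.98 for Cish and 1.06 for Socs3 on the log2(FPKM + 1) scale, with a limma adjusted p of 0.923 for each. For Cish the adjusted p ran from 0.719 to 0.992 over the libraries left out, and the value was lowest, 1.31, without knockout exercised library 1. For Socs3 the change was 0.54 without that library, and its resting difference was 0.14 in place of -0.16 without wild-type library 2, so its turn of direction rests on that resting library. The members of the pathway were picked with such values in view, so this is a description.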

How the results depend on the processing

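None of the 8 genes was called under any alternative that kept both tests, and 393 genes at rest, 310 after exercise, 1 list gene at rest and 4 after exercise were called as reported. With the deposited q alone these were 998, 865, 10 and 12. At a threshold of 0.01 they were 23, 26, 0 and 0. Without a filter on low values they were 212, 99, 0 and 2. Leaving out 1 library gave 17 (without wild-type library 2) to 257 genes at rest and 65 to 96 after exercise, with 0 to 2 and 0 to 1 list genes, and 0 to 1 genes for the change of the difference (1 without wild-type exercised library 3). Fewer libraries lower the power of every such fit. Other counts stayed within 1.5 times. With replicate number as a block, 47 genes at rest and 157 after exercise were called, with 0 and 1 list genes and 0 for the change of the difference. Same-numbered libraries correlated in their deviations from group means at -0.003 to 0.049 at rest and at -0.329 to 0.026 after exercise. Unlike-numbered libraries correlated at -0.13 to 0.08 at rest and at -0.143 to 0.364 after exercise. With 3 libraries per group, these values cannot decide whether the numbers are a pairing, and the main fits used no block. Without being called, 4 differences of the 8 genes changed sign: Socs2 at rest (0.01 without knockout library 3, -0.35 with it), Socs3 at rest (0.14 without wild-type library 2, -0.16 with it), Stat5b at rest (0.04 without wild-type library 3, -0.09 with it) and Igf1 after exercise (0.07 without knockout library 3, -0.19 with it). Igf1r after exercise, at 0.00 with all libraries, lay between -0.05 and 0.07. Absolute depth and the Cuffdiff settings limit what the low values of Socs3 and Cish can show.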
